A study of Mus musculus with 4 samples.

Results

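Type 1 effector and cytotoxic genes were followed in lymphoid tissue inducer (LTi) cells with and without floxed Gata3. The group held 10 of the 27179 genes in the table, chosen by symbol and not by any measured value: Tbx21, Eomes, Il12rb2, Ifng, Xcl1, Prf1, Gzma, Gzmb, Gzmc and Nkg7. LTi cells are innate lymphoid cells that make lymphotoxin. They were sorted from the lamina propria of the small intestine of C57BL/6 mice as lineage-negative, CD127-positive and CCR6-positive cells without surface NKp46, NK1.1 or KLRG1. Of the 4 libraries, the 2 called control here are Gata3+/+ and the 2 called Gata3-KO carry floxed Gata3 alleles (Gata3fl/fl) with VavCre. The Vav promoter drives Cre throughout the blood lineages, so other blood cells of those mice could lose Gata3 as well. The labels name no Cre for the controls, and the age of the mice is not given in the sources used here. Whether replicates came from separate animals is not stated, so each p-value reflects the spread of these particular samples, which could be technical.

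In a type 1 response, interleukin 12 acts through a receptor that includes IL-12Rβ2, STAT4 is activated, and the T-box factors T-bet (Tbx21) and Eomes turn on interferon γ, chemokines and the killing machinery. Perforin opens the membrane of a target cell and granzymes, serine proteases stored in the same granules, enter and cleave its proteins. These genes are best known from natural killer (NK) cells, ILC1, CD8 T cells and Th1 cells, while GATA3 is best known for type 2 lymphocytes and also acts in the development of ILC3 and LTi cells.

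Control replicates 1 and 2 held 14294708 and 12670034 reads, and Gata3-KO replicates 1 and 2 held 24315878 and 23973995 reads. Gata3 was at 84.3 and 50.7 RPKM (reads per kilobase, scaled to the library total) in control and at 34.5 and 23.3 RPKM in Gata3-KO libraries, a log2 difference of -1.18 ± 0.36 (SE) that did not pass the test (adjusted p = 0.0901 in limma). Reads of all exons are pooled in these values, and exons outside a floxed segment can still be transcribed. Values are given in the order control 1, control 2, Gata3-KO 1 and Gata3-KO 2 throughout. The sorted surface marker gene Ccr6 was at 63.3 RPKM or more in every library and Il7r, which codes for CD127, at 45.7 RPKM or more. As deposited, the genotypes did not overlap for either gene, with Ccr6 higher and Il7r lower in Gata3-KO. Of all tested genes, 54.0% lay higher and 7.58% lower without overlap. Genes of other cell types differed between the libraries as well. Of 20 tested B and plasma cell markers 15 were called higher in Gata3-KO, and of 20 epithelial markers 14, with none called lower in either list, where 8.34% of all tested genes were called higher. With median-ratio scaling 2 and 6 were called higher, beside 85 of all 14217 tested genes. With limma-voom 7 and 11 were called higher, beside 216 of all tested genes. The summed B and plasma list stood at 1419, 3955, 5326 and 5075 RPKM, and the summed epithelial list at 1625, 1649, 4424 and 6793 RPKM. The median tested gene lay 0.43 log2 units higher in Gata3-KO as deposited and 0.04 with median-ratio scaling, which sets the libraries to a common median gene. For this reason each difference was computed on both scales.

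No type 1 effector or cytotoxic gene passed the test for a change between the genotypes. Of the 10 genes, 9 had enough reads to be tested, and 0 of 9 passed an adjusted p of 0.05 in limma, where 9.03% of all 14217 tested genes did. Without adjustment 1 of 9 (Ifng) had p under 0.05, against 30.6% of all tested genes. After median-ratio scaling 0 of 9 passed, where 1.03% of all genes did, and 2 (Gzmb and Gzmc) had an unadjusted p under 0.05, against 22.7%. With limma-voom on recovered reads 0 of 9 passed, against a background of 1.85%, and 1 had an unadjusted p under 0.05, against 28.1%. The smallest adjusted p of any of these genes under any alternative was 0.0838. The median log2 difference of the 9 genes was -0.39, beside 0.43 for all tested genes, and -0.96 beside 0.04 after median-ratio scaling. In 3 of 9 genes the genotypes did not overlap (Ifng and Gzma higher and Gzmb lower in Gata3-KO), where 61.6% of all genes did not overlap, with 54.0% of all genes higher and 7.58% lower. After median-ratio scaling 0 of 9 lay higher without overlap, against 29.7% of all genes, and 3 (Tbx21, Gzmb and Gzmc) lay lower, against 25.6%. The absence of calls does not show equal levels, since the standard errors ran up to 1.96 log2 units.

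**Figure D1:**
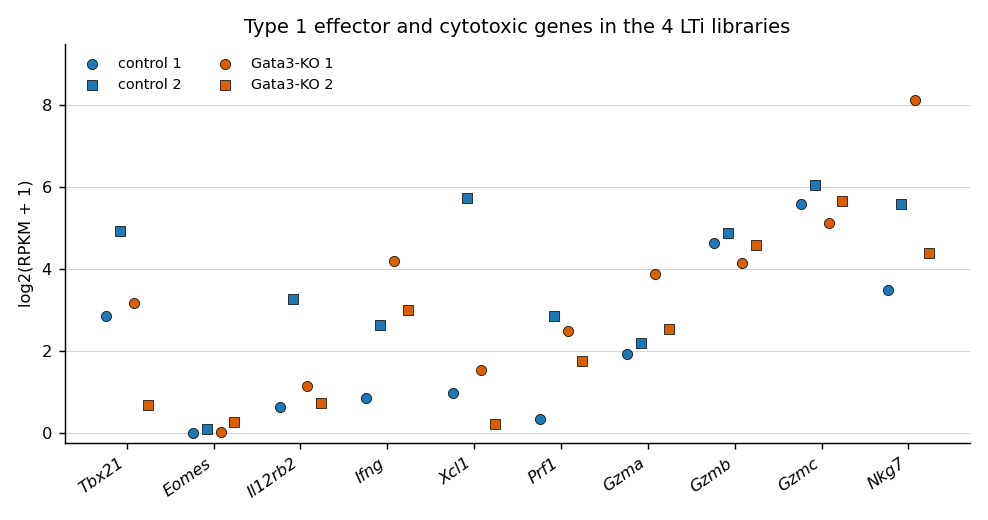
Level of each of the 10 genes in each library as log2(RPKM + 1), with blue for control, orange for Gata3-KO, circles for replicate 1 and squares for replicate 2. Gzmb and Gzmc keep their 4 points within a narrow band, whereas Xcl1, Nkg7, Tbx21, Il12rb2 and Prf1 have a replicate far from its partner.

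The spread between replicates of the same genotype was wide for most of these genes. In 5 of 9 the replicates of a genotype differed by at least 2 log2 units (Tbx21, Prf1, Nkg7, Il12rb2 and Xcl1), which held for 2.92% of all tested genes. The larger of the 2 within-genotype differences had a median of 2.50 log2 units in these genes and 0.53 in all tested genes. The highest library was control 2 for 6 of 9 genes and Gata3-KO 1 for the other 3, while 7.45% of all tested genes were highest in control 2 and 29.8% in Gata3-KO 1.

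Among the transcription factors, Tbx21 (Entrez 57765, chr11:97098007-97115331, RefSeq on GRCm38.p6) was at 6.22, 29.3, 7.96 and 0.588 RPKM, from 227, 946, 494 and 36 reads. Control 2 was the highest and Gata3-KO 2 the lowest, and control 1 lay between the Gata3-KO libraries. The means were 17.7 ± 16.3 RPKM in control and 4.27 ± 5.21 RPKM in Gata3-KO (SD, n = 2 each). The log2 difference was -1.97 ± 1.13 (SE, adjusted p = 0.317 in limma) and -2.41 ± 1.09 after median-ratio scaling (adjusted p = 0.276). On that scale the genotypes no longer overlapped, with rescaled values of 7.24, 38.1, 6.78 and 0.456 RPKM. The difference was -3.00 without control 1 and -0.94 without control 2. It was -3.22 without Gata3-KO 1 and -0.72 without Gata3-KO 2. As these are bulk libraries, fewer cells that carry a transcript and less of it in each cell cannot be told apart.

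Eomes (chr9:118478186-118486132), the other T-box factor and a mark of mature NK cells, was listed at 0, 0.0637, 0.0111 and 0.202 RPKM, or 0, 3, 1 and 18 reads. A count of 0 in control 1 allows up to 0.0565 RPKM (3 reads), and the exact 95% Poisson interval of Gata3-KO 2 ran from 0.120 to 0.319 RPKM, counting error only. The gene was too low to be tested. In all 4 libraries Tbx21 was therefore the more abundant of the T-box factors per transcript length. Of 13 tested partner factors in the list of type 1 regulators, none was called in limma on either scale. Their median log2 difference was 0.01, beside 0.43 for all tested genes, and -0.57 after median-ratio scaling, beside 0.04. Runx3, which works with T-bet at the interferon γ locus, was at 49.8, 58.2, 47.6 and 55.0 RPKM, with all libraries close together as deposited. After median-ratio scaling its log2 difference was -0.66 ± 0.23 (SE, adjusted p = 0.190 in limma), with both Gata3-KO libraries below both control libraries. Hlx, a homeobox partner of T-bet, was low, at 0.0326, 1.18, 0.708 and 2.15 RPKM.

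Il12rb2 (chr6:67285986-67376293), the signal-transducing chain of the interleukin 12 receptor, was at 0.546, 8.62, 1.20 and 0.651 RPKM, from 23, 322, 86 and 46 reads. Control 2 stood 15.8 times above control 1, while both Gata3-KO libraries were nearer to control 1 than to control 2. The log2 difference was -1.02 ± 0.88 (SE, adjusted p = 0.481 in limma). It was -2.34 without control 1 and 0.30 without control 2. RefSeq places Serbp1 across the same span. Of the 50-base stretches of Il12rb2 transcripts, 38.0% also occur in Serbp1 transcripts or elsewhere, so the values of Il12rb2 are uncertain. The shared receptor chain Il12rb1 was at 7.82, 32.03, 13.2 and 25.04 RPKM, again highest in control 2, with a log2 difference of 0.17 that turned to -0.39 after median-ratio scaling. The chains of the interleukin 18 receptor were lower in Gata3-KO without passing the test. Il18r1 was at 16.6, 9.15, 8.08 and 6.76 RPKM and Il18rap at 11.5, 11.7, 6.995 and 4.81 RPKM, with adjusted p of 0.264 and 0.121 in limma. Il2rb, which codes for the β chain shared by the receptors of interleukins 2 and 15, was abundant in every library at 970, 933, 497 and 592 RPKM. Its log2 difference of -0.81 ± 0.31 did not pass on the deposited scale (adjusted p = 0.141 in limma). After median-ratio scaling it was -1.41 ± 0.22 and did not pass either (adjusted p = 0.0600 in limma). With limma-voom and median-ratio scaling it was -1.41 and passed (adjusted p = 0.0472), the only setting in which Il2rb was called. Stat4 was at 117, 70.7, 92.0 and 80.8 RPKM, a log2 difference of -0.08 ± 0.33. After median-ratio scaling it was -0.67 ± 0.28 (adjusted p = 0.245 in limma), with both Gata3-KO libraries below both control libraries. Of the 16 tested receptor and signalling genes, none was called in limma on log2(RPKM + 1) on either scale, with medians of 0.05 and -0.47.

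Ifng (chr10:118441046-118445894), which codes for interferon γ, was at 0.811, 5.17, 17.4 and 6.98 RPKM, from 14, 79, 510 and 202 reads. Both Gata3-KO libraries lay above both control libraries, and control 1 was far below the rest. The means were 2.99 ± 3.08 RPKM in control and 12.2 ± 7.35 RPKM in Gata3-KO (SD, n = 2 each). The log2 difference of 1.86 ± 0.70 (SE) had an unadjusted p of 0.0404 and an adjusted p of 0.146 in limma. After median-ratio scaling it was 1.38 ± 0.79 (adjusted p = 0.367) and the genotypes overlapped, at 0.943, 6.72, 14.8 and 5.41 RPKM. The direction held without each library in turn, from 0.97 without control 1 to 2.74 without control 2. Another annotated transcript, Gm49751, shares 19.9% of the 50-base stretches of Ifng, and reads of the pair may not be told apart.

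Xcl1 (chr1:164931644-164935522), the chemokine lymphotactin, which draws XCR1-bearing dendritic cells, had the widest spread. It was at 0.975, 52.2, 1.88 and 0.166 RPKM, from 7, 332, 23 and 2 reads. Of the 50-base stretches of Xcl1, 10.8% also occur in the annotated transcript Gm20743, and reads of the pair may not be told apart. Xcl1 in control 2 was 53.5 times that in control 1. The log2 difference was -2.48 ± 1.96 (SE, adjusted p = 0.474 in limma). It was -4.86 without control 1 and -0.11 without control 2. The gene for its receptor, Xcr1, was at 3.69, 2.43, 1.34 and 0.768 RPKM. The β-chemokines made by activated killer cells did not pass the test. Ccl3 was at 3.28, 7.09, 8.23 and 7.29 RPKM, Ccl4 at 5.30, 44.7, 23.7 and 49.7 RPKM and Ccl5 at 4.73, 29.8, 41.9 and 17.7 RPKM, with control 1 the lowest library for all 3.

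Gzmb and Gzmc were the most evenly expressed of these genes. Gzmb (chr14:56258836-56262334), the granzyme that cleaves caspases, was at 23.8, 28.6, 16.8 and 22.9 RPKM, from 483, 513, 579 and 779 reads. Gzmc (chr14:56231397-56241647), its neighbour on the same chromosome, was at 47.0, 65.7, 33.6 and 50.1 RPKM, from 627, 778, 764 and 1121 reads. Both were highest in control 2 and lowest in Gata3-KO 1, and the replicates of a genotype differed by at most 1.37 times for Gzmb and 1.49 times for Gzmc. The ratio of Gzmc to Gzmb in RPKM was 1.97, 2.30, 2.00 and 2.18. Gzmb was 26.2 ± 3.34 RPKM in control and 19.9 ± 4.33 RPKM in Gata3-KO (SD, n = 2 each), a log2 difference of -0.39 ± 0.29 (SE, adjusted p = 0.402 in limma). For Gzmc the log2 difference was -0.43 ± 0.33 (adjusted p = 0.415). After median-ratio scaling the differences were -0.96 ± 0.26 for Gzmb (adjusted p = 0.125) and -1.01 ± 0.31 for Gzmc (adjusted p = 0.153), and for both genes the genotypes did not overlap on that scale. The sign was negative without each library in turn for both.

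The rest of the granzyme family was low. The table held 10 granzyme genes, 7 of them on chromosome 14. The 5 of those other than Gzmb and Gzmc reached at most 1.43 RPKM and 17 reads in any library. Gzmc shares 4.14% of its 50-base stretches with Gzme, Gzmg and Gzmd, and Gzmb shares 0%. Gzmk was at 0, 0.299, 1.40 and 0.0527 RPKM, with 27 of its reads in Gata3-KO 1. Gzmm was at 1.63, 1.17, 0.576 and 0.259 RPKM, with both control libraries above both Gata3-KO libraries (log2 difference -0.76 ± 0.29, adjusted p = 0.145 in limma).

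Gzma (chr13:113093824-113100981), a granzyme that does not act through caspases, was at 2.79, 3.60, 13.7 and 4.75 RPKM, from 35, 40, 292 and 100 reads. The Gata3-KO libraries lay above the control libraries on the deposited scale, by a log2 difference of 1.14 ± 0.49 (SE, adjusted p = 0.180 in limma). After median-ratio scaling the genotypes overlapped and the difference was 0.65 ± 0.54 (adjusted p = 0.526). Without Gata3-KO 1 it was 0.46, and -0.06 after median-ratio scaling. Without Gata3-KO 2 it was 1.81, and 1.35 after median-ratio scaling.

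**Figure D2:**
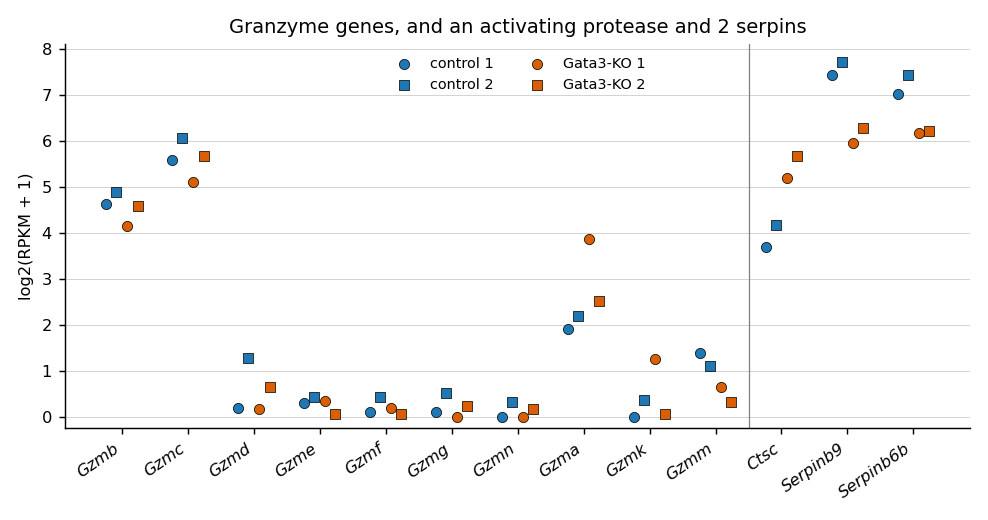
The 10 granzyme genes and, right of the grey line, Ctsc, Serpinb9 and Serpinb6b in each library as log2(RPKM + 1), with blue for control, orange for Gata3-KO, circles for replicate 1 and squares for replicate 2. Gzmb and Gzmc stand well above their neighbours, and the serpins are lower and Ctsc higher in both Gata3-KO libraries.

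Serpinb9, the inhibitor that protects a killer cell from its own granzyme B, was at 171, 211, 61.5 and 77.04 RPKM. Both Gata3-KO libraries were far below both control libraries, and Serpinb9 fell by 1.45 ± 0.28 on the log2 scale (SE, adjusted p = 0.0353 in limma) and by 2.04 after median-ratio scaling (adjusted p = 0.0475). Without the filter on low values Serpinb9 was not called (adjusted p = 0.104). Leaving out any 1 library ended every call in the table on the deposited scale, and Serpinb9 then fell short of the threshold at differences from -1.61 without Gata3-KO 2 to -1.29 without Gata3-KO 1. Serpinb6b, a related serpin named after its values were seen, was at 129, 171, 71.0 and 73.3 RPKM and did not pass (adjusted p = 0.0698). Ctsc, the protease cathepsin C that removes the propeptide of granzymes, was at 12.0, 17.1, 35.4 and 50.0 RPKM, higher in both Gata3-KO libraries. It was called on the deposited scale (log2 difference 1.49, adjusted p = 0.0428 in limma) and not after median-ratio scaling (log2 difference 0.92, adjusted p = 0.177).

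Stretches upstream of a start site of these genes are shown because granzyme, perforin and chemokine genes of lymphocytes are known targets of RUNX and T-box factors. RefSeq promoters (GRCm38.p6) matched all 10 genes, and the 250 bases before the start site were searched on both strands for TGTGGT (RUNX), GGTGTG (T-box) and, for GATA factors, GATAA or GATAG with an A or T before it. TGTGGT occurred in 6 of 10 (Gzma, Gzmb, Gzmc, Prf1, Nkg7 and Xcl1), where 14.2% of 27025 promoters of the same length hold it. GGTGTG occurred in 2 of 10 (Nkg7 and Xcl1), against 16.2%, and a GATA hexamer in 1 of 10 (Ifng), against 27.1%. A match is a description of letters and not a binding site. Gzmb and Gzmc each hold TGTGGT 2 times, at 93 and 34 bases before the start site of Gzmb and at 174 and 108 bases before that of Gzmc. Xcl1 and Nkg7 hold both RUNX and T-box letters, and Ifng holds the only GATA hexamer of the group. The start site that the RefSeq promoter table uses for Gzmc lies inside the span given above, which begins further upstream, so the Gzmc stretch is upstream of that start site and not of the whole locus. The sequences run 5′ to 3′ on the strand of the gene, and capitals mark the matched letters or their reverse complement.
Gzmb (chr14:56262335-56262584, strand minus): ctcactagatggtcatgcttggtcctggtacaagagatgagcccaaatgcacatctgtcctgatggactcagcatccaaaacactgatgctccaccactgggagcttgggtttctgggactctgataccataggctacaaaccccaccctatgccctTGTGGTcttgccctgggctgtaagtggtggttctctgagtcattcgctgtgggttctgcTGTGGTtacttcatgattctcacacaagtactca
Gzmc (chr14:56234658-56234907, strand minus): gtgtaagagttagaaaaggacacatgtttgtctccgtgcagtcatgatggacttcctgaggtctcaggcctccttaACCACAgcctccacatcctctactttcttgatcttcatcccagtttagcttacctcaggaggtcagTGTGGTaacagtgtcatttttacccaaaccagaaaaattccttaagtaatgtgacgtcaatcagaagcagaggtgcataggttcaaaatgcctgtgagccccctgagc
Xcl1 (chr1:164935523-164935772, strand minus): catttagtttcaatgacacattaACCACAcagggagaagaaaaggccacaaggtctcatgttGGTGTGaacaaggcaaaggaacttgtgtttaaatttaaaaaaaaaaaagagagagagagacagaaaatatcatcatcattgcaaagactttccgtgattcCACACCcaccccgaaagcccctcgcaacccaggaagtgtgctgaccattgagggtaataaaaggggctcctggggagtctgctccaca
Ifng (chr10:118440796-118441045, strand plus): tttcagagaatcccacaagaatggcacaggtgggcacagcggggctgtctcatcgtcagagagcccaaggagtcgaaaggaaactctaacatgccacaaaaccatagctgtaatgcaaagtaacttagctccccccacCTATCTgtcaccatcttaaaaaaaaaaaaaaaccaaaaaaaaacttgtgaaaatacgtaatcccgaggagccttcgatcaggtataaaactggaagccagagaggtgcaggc

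Prf1 (chr10:61297751-61304684), which codes for perforin, was at 0.272, 6.26, 4.63 and 2.40 RPKM, from 8, 163, 231 and 118 reads. Control 1 was the lowest and control 2 the highest library, so the Gata3-KO values lay inside the control range. The log2 difference was 0.52 ± 0.86 (SE, adjusted p = 0.719 in limma), and it was -0.73 without control 1 and 1.78 without control 2.

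Nkg7 (chr7:43437138-43438246), a granule membrane protein needed for degranulation, was at 10.2, 47.3, 279 and 19.9 RPKM, from 119, 487, 5522 and 387 reads. Gata3-KO 1 stood 14.1 times above Gata3-KO 2, which lay between the control libraries. The log2 difference was 1.71 ± 1.75 (SE, adjusted p = 0.581 in limma). It was -0.16 without Gata3-KO 1 and 3.59 without Gata3-KO 2. Ctsw, a cathepsin of killer cell granules, had a like spread at 27.8, 131, 182 and 19.6 RPKM. Srgn, the proteoglycan serglycin that packs granules, was even as deposited, at 719, 504, 676 and 628 RPKM. After median-ratio scaling its log2 difference was -0.48 ± 0.25 (SE, adjusted p = 0.321 in limma), and the genotypes did not overlap. Fasl, the death ligand, was at 0.795, 6.81, 3.49 and 0.323 RPKM.

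**Figure D3:**
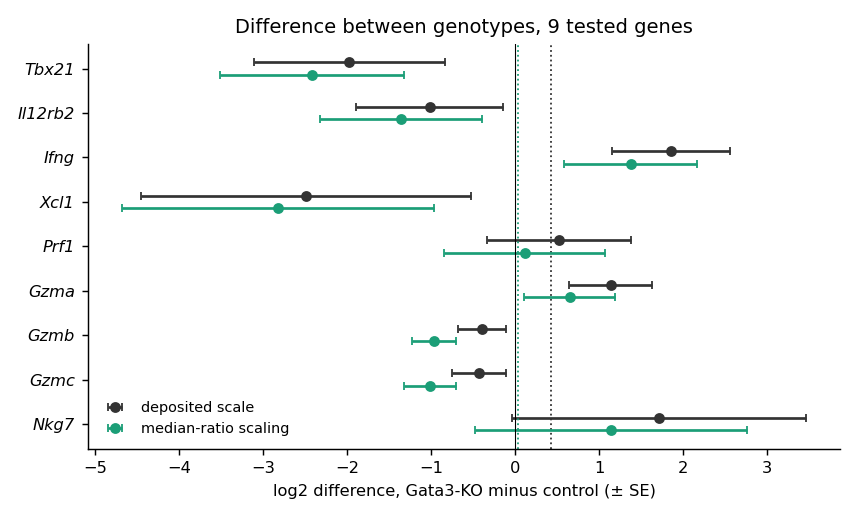
Log2 difference between genotypes (Gata3-KO minus control, bars are ± SE) for the 9 tested genes as deposited (black) and with median-ratio scaling (green), with dotted lines at the median of all tested genes on each scale. Every gene lies lower after median-ratio scaling, and the bars of Gzmb and Gzmc are the shortest.

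Of 22 tested T cell markers 8 were called higher and 1 lower in Gata3-KO, beside 8.34% and 0.689% of all genes. With median-ratio scaling 1 was called higher and 1 lower, beside 85 and 62 of all 14217 tested genes. With limma-voom 2 were called higher and 1 lower, beside 216 and 47 of all tested genes. In all, 15 of 22 were highest in Gata3-KO 1, the library highest for Nkg7, Ifng and Gzma, and 1 of 22 in control 2. The summed T cell list stood at 755, 672, 1491 and 865 RPKM. Cd3g was at 4.65, 5.63, 202 and 53.0 RPKM, Cd3e at 2.58, 5.66, 111 and 26.3 RPKM, Cd8a at 0.112, 0.630, 34.3 and 1.27 RPKM and Trdc, the constant region of the T cell receptor δ chain, at 0.950, 0.714, 63.9 and 2.42 RPKM. Without Gata3-KO 1 the median log2 difference of the T cell list was 0.83, against 1.86 with it. Of the 23 T cell genes, 1 was listed at 0 in control 1 and 1 in Gata3-KO 1, and 0 in the other libraries. The part of T cell transcripts in the levels of Nkg7, Ifng and Gzma was not tested.

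Of 17 tested NK and ILC1 markers none was called higher and 3 were called lower in Gata3-KO (Ncr1, Klrk1 and Klrc1), beside 0.689% of all genes called lower. With median-ratio scaling 1 was called lower (Klrk1), beside 62 of all 14217 tested genes, and with limma-voom 1, beside 47. Their summed level was 1068, 895, 713 and 661 RPKM. Of the 25 genes of that list, 7, 7, 7 and 8 were listed at 0 in the respective libraries. Among them were the Ly49 receptor genes Klra3, Klra4, Klra7 and Klra8, at 0 in every library. Klrb1c, which codes for the NK1.1 that the sort excluded, was at 0.585, 7.92, 12.1 and 4.22 RPKM, low in control 1 like Ifng and Prf1. Ncr1, which codes for NKp46, was at 6.84, 14.8, 0.0562 and 0.428 RPKM, and Klrd1 at 0.565, 0.547, 2.23 and 0.867 RPKM. The part of such transcripts in the levels of these genes was not tested.

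**Figure D4:**
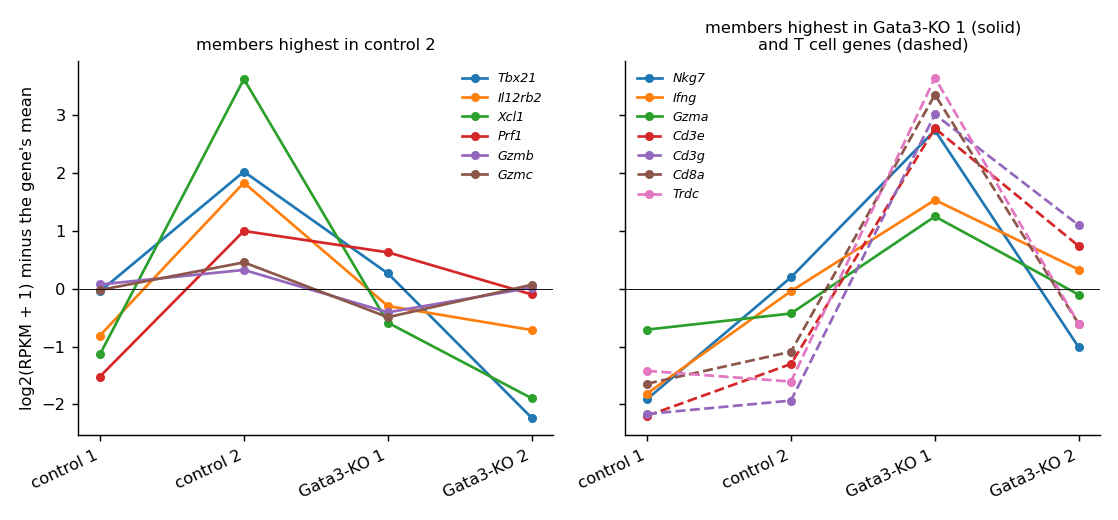
log2(RPKM + 1) of each gene minus its mean over the 4 libraries. On the left are the members highest in control 2, where Gzmb and Gzmc stay near 0. On the right are the members highest in Gata3-KO 1 (Nkg7, Ifng and Gzma, solid) with 4 T cell genes also highest there (dashed). The members were grouped by their highest library, so a peak shared within a panel follows from that choice. Of 22 tested T cell markers, 15 were highest in Gata3-KO 1.

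Likeness of profile was measured over the 4 libraries as the root mean square distance between values centred on each gene's own mean, among 178 genes of the lists with a mean of at least 1 RPKM. With 4 libraries this is a description only. The values were not scaled to a common spread, so genes that vary little all lie near one another. Distances from Gzmb, which varied little, are therefore not comparable with those from Tbx21 and Ifng. The nearest to Tbx21 were Cxcr3 (distance 0.52 log2 units), Fasl (0.72) and Il12rb2 (0.90). Cxcr3, a chemokine receptor of type 1 lymphocytes, was at 25.5, 42.6, 25.4 and 2.08 RPKM, lowest in Gata3-KO 2 as Tbx21 was. The nearest to Ifng were Cst7 (0.42), Klrb1c (0.45) and Ccl5 (0.45), and the nearest to Gzmb were Gzmc (0.094), Runx1 (0.12) and Kit (0.12).

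Of the other genes of type 1 and cytotoxic responses, 11 of 80 tested over 5 lists were called, where 9.03% of all tested genes were. After median-ratio scaling 2 of 80 were called, where 1.03% of all tested genes were. Of 19 tested granule and killing genes 2 were called higher (Ctsc and Rab27a) and 1 lower (Serpinb9), with a median log2 difference of 0.62. After median-ratio scaling Serpinb9 alone was called in that list and its median was 0.04. Rab27a, a GTPase that docks granules at the membrane, was at 12.6, 17.2, 36.9 and 43.8 RPKM and was not called after that scaling (adjusted p = 0.180). The background was 8.34% called higher and 0.689% called lower.

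Of 21 genes known to respond to interferon γ, 6 were called higher and 1 lower, beside 8.34% and 0.689% of all tested genes. Their median log2 difference was 0.53, beside 0.43 for all tested genes. The 6 were Ciita, Psmb9, Nos2, Psmb8, Wars and Irgm1. Ciita, the master regulator of MHC class II, was at 0.725, 0.818, 5.07 and 8.36 RPKM, Psmb9, an immunoproteasome subunit, at 48.8, 42.6, 150 and 112 RPKM, and Nos2, the inducible nitric oxide synthase, at 11.0, 4.85, 30.8 and 33.4 RPKM. None of the 6 passed after median-ratio scaling. Ciita and immunoproteasome genes are also made by B cells, whose markers were higher in Gata3-KO libraries, and that part was not tested. Cxcl9, a chemokine ligand of CXCR3, went the other way. It was at 13.97, 7.77, 0.439 and 1.16 RPKM and fell by 2.70 ± 0.41 on the log2 scale (SE, adjusted p = 0.0234 in limma) and by 3.10 after median-ratio scaling (adjusted p = 0.0470). With a library left out its difference ran from -3.08 without control 2 to -2.31 without control 1 and was not called, nor was it without the filter on low values (adjusted p = 0.0951) or with limma-voom and median-ratio scaling (adjusted p = 0.0564). Ifngr1, a chain of the interferon γ receptor, was at 825, 562, 308 and 504 RPKM and did not pass (adjusted p = 0.223).

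**Figure D5:**
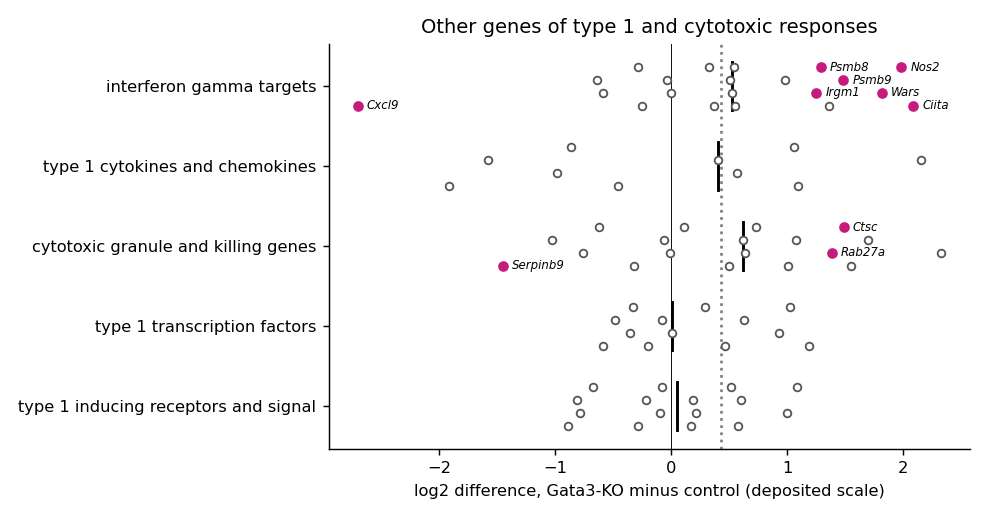
Log2 difference between genotypes on the deposited scale for the tested genes of the 5 lists (1 is not shown), with pink points for genes called at an adjusted p of 0.05 and labelled, open points for the others, short black lines at each list's median and a dotted line at the median of all tested genes. Serpinb9 and Cxcl9 are the only called genes on the negative side.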

How the data were processed

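Per the labels' protocols, total RNA (Qiagen miRNeasy Micro) went into Smart-seq2 libraries, which cover whole transcripts and carry no molecular identifiers. Subread, featureCounts and mouse build mm10 were used, per the submitters' processing notes; versions, annotation, strand setting and treatment of multi-mapping reads are not given in the sources used. The authors deposited 1 log2 value per gene and library for 27179 Entrez identifiers. From the values, these are log2(RPKM + 1) with 0.0001 added, scaled to each library's total only.

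Reads were recovered as whole multiples of what 1 read is worth (19045 of 19047 genes with reads, tolerance 1e-06), which gave the library totals, the filter and the scaling. Recovered reads made up between 98.6% and 99.0% of the totals. Gene lengths were chosen as the smallest that make the reads whole. A floor of 3 reads was between 0.123 and 0.237 CPM. A gene was tested where 2 or more libraries reached 0.523 CPM and its reads came to 15 or more (14217 genes). The test was limma 3.58.1 (R 4.3.3; trend, robust) on log2(RPKM + 1), a pseudocount of 1, two-sided, Benjamini-Hochberg adjusted over all tested genes, threshold 0.05. The log2 scale with a pseudocount understates changes of low genes. With 2 against 2 libraries an exact permutation test cannot go below 0.333, so none is given. The model was tested on simulated data.

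The named genes are the 10 members, Gata3, up to 4 called genes per pathway list by adjusted p, and fixed genes of receptors, granules, chemokines and other cell types. Ccr6, Il7r, Xcr1, Serpinb6b, the Klra genes, Klrc1, Psmb8, Wars, Irgm1 and the genes nearest in profile were named outside that list, after values were seen or by the likeness rule. Members and gene lists were chosen with earlier results of these data known. Alternatives were median-ratio and upper-quartile scaling, no filter, a filter of 5 CPM, a pseudocount of 0.1, limma-voom, a replicate block and leaving out each library, some with median-ratio scaling. Some genes that meet the naming rule are not reported here. Shared 50-base stretches were counted in GENCODE M21 transcripts. Other steps ran in Python 3.11.15 with pandas 2.3.3, scipy 1.17.1, numpy 2.4.6 and, for plots, matplotlib 3.10.9.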

Additional observations from a re-analysis of the deposited data

How the results depend on the processing

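No type 1 effector or cytotoxic gene was called under any alternative run. Counts of called genes over the whole table, the 5 pathway lists and the lists of other cell types were 1284, 11 and 44 as reported. They were 147, 2 and 14 with median-ratio scaling, 185, 2 and 18 with upper-quartile scaling, 0, 0 and 0 with no filter (4335 genes with an unadjusted p under 0.05 in limma), 263, 2 and 25 with limma-voom, and 92, 2 and 13 with limma-voom and median-ratio scaling. A pseudocount of 0.1 gave 852 genes over the whole table and 6 in the pathway lists, and the stricter filter 17 in the pathway lists. Leaving out each library in turn gave 0 to 34 called genes over the whole table, 0 to 0 in the pathway lists and 0 to 4 in the other lists, and the fewer samples leave less power. The cause of the other shifts was not tested. Over those leave-outs, as deposited and with median-ratio scaling, the log2 difference changed sign for Gzma (-0.059 to 1.81), Prf1 (-1.31 to 1.78), Nkg7 (-0.78 to 3.59), Il12rb2 (-2.86 to 0.30), Il12rb1 (-1.45 to 1.13), Stat4 (-0.96 to 0.28), Ctsw (-2.21 to 1.57), Srgn (-0.68 to 0.37), Fasl (-2.19 to 0.44), Ccl3 (-0.51 to 1.03), Ccl4 (-1.05 to 2.49), Ccl5 (-0.79 to 2.31), Runx3 (-0.87 to 0.037), Hlx (-0.31 to 1.17), Klrb1c (-0.72 to 2.38), Klrd1 (-0.0061 to 1.05) and Cd160 (-0.70 to 1.29).

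With all 4 libraries the sign turned for Il12rb1 to -0.39 and Srgn to -0.48 with median-ratio scaling, and to -0.36 and -0.45 with upper-quartile scaling, to -0.33 and -0.48 with limma-voom and median-ratio scaling. Ctsw turned to 0.0044 with limma-voom.

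The labels do not say whether same-numbered replicates were paired. Over the more highly expressed tested genes, the difference between replicates in control correlated at -0.063 with that in Gata3-KO. With 2 libraries per genotype this value cannot tell whether the samples were paired. With the replicate block 1067 genes, 0 members, 8 pathway genes and 42 markers were called, and with the replicate block and median-ratio scaling 26, 0, 0 and 2, with Il12rb1 at -0.39 and Srgn at -0.48. Serpinb9 was not called with the block (adjusted p = 0.0658 in limma, and 0.0884 with median-ratio scaling), and Cxcl9 was called with the block alone (adjusted p = 0.0257) and not with both (0.0884).

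With 2 libraries per genotype a missing call does not show equal levels. Some libraries held few reads of a gene (2 and 7 of Xcl1, 8 of Prf1), and Eomes was too low to test. The parts of depth and of replicate spread in the missing calls were not tested.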

Other observations

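Il10, which codes for a regulatory cytokine, was listed at 0 in control 1 and was at 0.907, 3.34 and 7.70 RPKM in control 2, Gata3-KO 1 and Gata3-KO 2. Csf2, the gene for GM-CSF, was at 20.7, 22.2, 9.51 and 4.40 RPKM, with both Gata3-KO libraries below both control libraries. Il21 was listed at 0 in control 1 and control 2, and stood at 2.80 RPKM in Gata3-KO 1 and 0.0815 RPKM in Gata3-KO 2. Fas, the receptor for the death ligand, was at 1.71, 1.14, 23.98 and 4.86 RPKM, highest in Gata3-KO 1. None of the 4 passed limma's test or, for Il21, was tested, and all 4 were chosen after their values were seen.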
